A study of Mus musculus with 6 samples.

Results

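The genes described here are 9 components of activin, bone morphogenetic protein (BMP) and transforming growth factor β (TGF-β) signalling, with the peaks of thyroid hormone receptor α (TRα) that were assigned to them in mouse gastrocnemius muscle. They are the ligand gene Bmp6, the type I receptor genes Acvr1, Acvr1b, Acvr1c and Tgfbr1, the type II receptor genes Acvr2b and Tgfbr2, and the Smad genes Smad3 and Smad4. A peak was counted for a gene where annotation text that had run over into the line after the peak held a RefSeq protein accession of that gene. This gave 78 peaks of 491681 in all, and all 9 genes had at least 1 peak, out of 395 genes that could be named in this way.

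TRα occupancy was mapped by chromatin immunoprecipitation and sequencing in whole gastrocnemius, the large calf muscle, of 6 mice. The mice were 6, 15 or 21 months old, with 2 mice (replicates 1 and 2) per age, and peaks were called separately for each mouse against its own input chromatin. The labels name no genotype, treatment, strain or sex, and no library with a blank antibody or without TRα was used here. In whole muscle, binding in fewer cells and weaker binding in every cell cannot be told apart.

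Ligands of this family bind paired type I and type II receptor kinases at the cell surface, and the type I receptor phosphorylates receptor-regulated Smad proteins. These join Smad4, enter the nucleus and act on transcription. In skeletal muscle, myostatin and activins acting through Acvr2b and the Smad3 branch are known to restrain muscle mass, BMP signals acting through a separate Smad branch are known to favour it, and TGF-β is known for driving fibrosis. TRα is a nuclear receptor that binds response elements with a retinoid X receptor and regulates transcription under the control of thyroid hormone.

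The promoters of Acvr1 and Bmp6 are shown because these genes had peaks in each mouse of 15 months and in neither of 21 months. Each is the 250 bases before the annotated transcription start, from RefSeq on GRCm38.p6, written 5′ to 3′ along the gene, with CpG dinucleotides in capitals. The Acvr1 stretch is chr2:58566829-58567078 on the minus strand, and the Bmp6 stretch is chr13:38345466-38345715 on the plus strand.
Acvr1: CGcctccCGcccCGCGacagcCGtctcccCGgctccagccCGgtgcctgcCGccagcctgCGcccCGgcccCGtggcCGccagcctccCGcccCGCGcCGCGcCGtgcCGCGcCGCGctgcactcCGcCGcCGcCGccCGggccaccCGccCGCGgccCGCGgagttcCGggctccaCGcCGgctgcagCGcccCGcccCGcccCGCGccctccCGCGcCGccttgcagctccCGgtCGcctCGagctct
Bmp6: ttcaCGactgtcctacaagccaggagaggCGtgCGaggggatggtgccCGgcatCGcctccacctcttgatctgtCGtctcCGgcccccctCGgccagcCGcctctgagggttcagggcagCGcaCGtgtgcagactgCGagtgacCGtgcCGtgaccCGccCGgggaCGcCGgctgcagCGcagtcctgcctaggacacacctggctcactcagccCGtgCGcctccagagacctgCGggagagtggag
The Acvr1 stretch held 46 CpG dinucleotides and the Bmp6 stretch 22. Promoter windows, 250 bases before to 50 after a start, were matched for 8 of the 9 genes, with 10 windows in all. Their median CpG number was 27 against 7 over all 32851 windows, and their median GC content was 71.3% against 52.7%. They were not uniform, since 1 window of Acvr1c held 2 CpG dinucleotides and its other window 39, and the windows of Tgfbr1 held 3 and 34.

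No window of the 8 genes held the thyroid hormone response half-site AGGTCA on either strand, which 16.3% of all windows held. None held the DR4 element, a pair of such half-sites in tandem with a short spacer, which was in 0.0152% of all windows, or the Smad-binding palindrome GTCTAGAC, which was in 0.213%. These matches describe letters in promoter windows and not the sequence under the peaks, which was not analysed here. The peaks carry GRCm39 positions and the windows GRCm38.p6 positions, so the distance from peaks to these starts was not used here.

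The 6 lists held between 29405 peaks, in replicate 2 at 15 months, and 106152, in replicate 2 at 6 months. Fold enrichment is the authors' value for each peak, the stacked fragments at its summit (the pileup) plus 1 over the local background from input plus 1. Local background values given here were worked back from the fold on that basis, and a Poisson tail from them matched the deposited p within 1% on the −log10 scale for 78 of the 78 peaks of these genes. The lowest local background lay between 0.633 and 0.824 fragments in 5 lists and was 1.196 in replicate 1 at 6 months, so weak peaks rest on few fragments. Replicate 1 at 6 months stood apart by weak enrichment, with 44 peaks reaching a fold of 10, where the other lists had 108 to 211, and replicate 2 at 15 months stood apart by its short list.

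Summed over the 9 genes, replicate 1 at 6 months had 5 peaks and replicate 2 had 19. At 15 months the mice had 22 and 4 peaks, and at 21 months 17 and 11. Within each age 1 mouse had more peaks of these genes than the other, before scaling to list length, and the ages overlapped. Scaled to list length, the 6-month mice had 0.633 (exact binomial 95% interval 0.205 to 1.48) and 1.79 (1.08 to 2.79) peaks of these genes per 10000 peaks. The 15-month mice had 2.21 (1.39 to 3.35) and 1.36 (0.371 to 3.48), and the 21-month mice 1.85 (1.08 to 2.97) and 1.28 (0.639 to 2.29). Within each age the intervals of both mice overlapped, and they cover counting error only. The means (± SD, n = 2 mice) were 1.21 ± 0.818 in the youngest mice, 1.79 ± 0.603 in those of 15 months and 1.57 ± 0.407 in the oldest. The differences between these means were smaller than the SD at 6 months. Among peaks with a pileup of at least 5, the 6-month mean was 0.676, beside 1.99 and 2.03 at 15 and 21 months. With equal list lengths it was 0.510, beside 1.87 and 1.87. At that equal length of 29405 peaks, 1 peak alone amounts to 0.340 per 10000, so these means rest on few peaks. No spread between mice is given for these alternative means, and their differences were not tested. Without replicate 1 at 6 months the remaining 6-month value was 1.79, and without replicate 2 at 15 months the remaining 15-month value was 2.21.

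**Figure D1:**
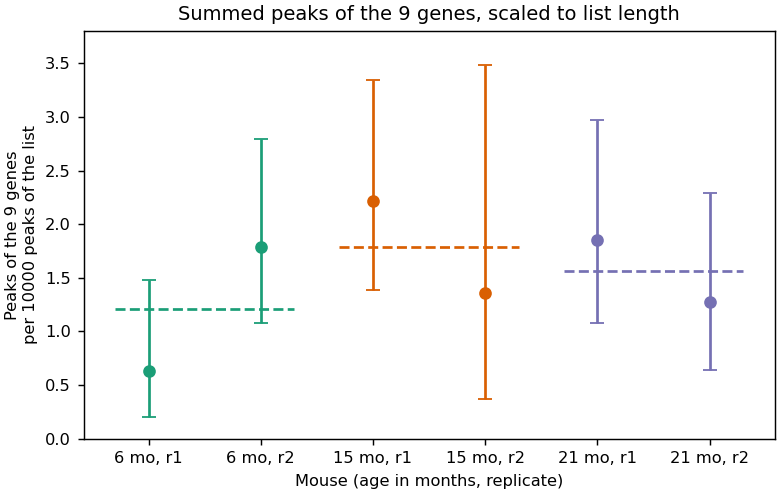
Peaks of the 9 genes per 10000 peaks of each list (vertical axis) for the 6 mice (horizontal axis, age in months and replicate). Points are single mice, bars are exact binomial 95% intervals and dashed lines are the means of both mice of an age. The lowest point is replicate 1 at 6 months at 0.633 and the highest is replicate 1 at 15 months at 2.21.

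By role, the 4 type I receptor genes held 44 of the 78 peaks, the type II receptor genes 16, the Smad genes 11 and Bmp6 7. The median gene of the group had 7 peaks over the 6 lists, and the median of all 395 named genes was 6, with a highest number of 95. Tgfbr1, at 16 peaks, had more than 81.3% of named genes, and Acvr2b and Smad4, at 2 peaks each, had more than 13.2%. Peaks were found in all 6 mice for 1 of the 9 genes, Tgfbr1, where 18.5% of all named genes had peaks in all 6. Smad3 had peaks in 5 mice, Bmp6, Acvr1b, Acvr1c and Tgfbr2 in 4, Acvr1 in 3, and Acvr2b and Smad4 in 2.

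**Figure D2:**
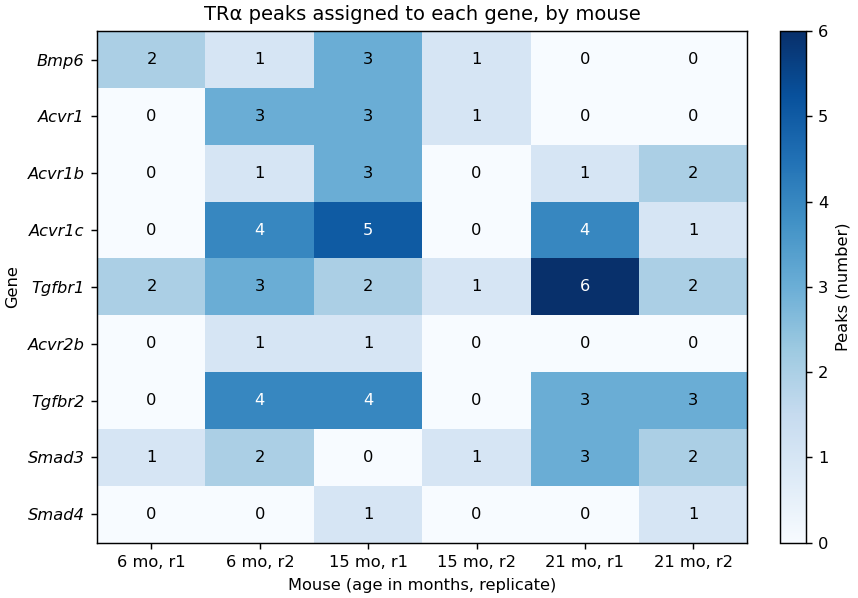
Number of TRα peaks assigned to each of the 9 genes (rows) in each mouse (columns, age in months and replicate), shown as a digit and by shading. Bmp6 and Acvr1 have 0 peaks in both mice at 21 months, and Tgfbr1 has at least 1 peak in every mouse.

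Bmp6, a secreted BMP ligand best known for setting hepcidin and iron balance in the liver, had 2 and 1 peaks in the 6-month mice, 3 and 1 in the 15-month mice, and 0 in both mice at 21 months. Its level was 0.253 and 0.0942 peaks per 10000 peaks in the 6-month mice and 0.302 and 0.340 in the 15-month mice. Every younger mouse had a peak and neither mouse of 21 months did. Both mice of 6 months were thus above both of 21 months, as in 10.6% of named genes, and both of 15 months were above all others. In replicate 2 at 15 months this rests on 1 peak in a short list, ranked above 2 peaks in replicate 1 at 6 months. Over both lists of 21 months together, 0 of 177648 peaks allows up to 0.169 per 10000, or 3 counts, which is below the level of 3 of the 4 younger mice and covers counting error only. Those younger levels themselves rest on 1 to 3 peaks each. Taken singly, the 21-month mice allow up to 0.327 (replicate 1) and 0.349 (replicate 2) per 10000. The limit of replicate 2 lies above the level of every younger mouse. That of replicate 1 lies above all but the 0.340 of replicate 2 at 15 months. The exact permutation p for a difference between the 3 ages was 0.0667, the smallest that the 15 splits of the mice into pairs allow, and 1 after Benjamini-Hochberg adjustment over all 395 named genes. That smallest p was reached by 3.04% of named genes. With plain numbers of peaks in place of scaled ones, the same test gave Bmp6 a p of 0.333. The 7 peaks of Bmp6 lay within 46.2 kb of chromosome 13, from 38540559 to 38586786, and no position was shared by any pair of mice. Its best peak per mouse had folds of 3.10 and 3.35 in the 6-month mice and 3.54 and 3.73 in the 15-month mice. Each rested on a pileup of 5 or 6 fragments.

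Acvr1, a type I receptor for BMPs that is mutated in the human disease fibrodysplasia ossificans progressiva, had 0 and 3 peaks in the 6-month mice, 3 and 1 in the 15-month mice, and 0 in both mice at 21 months. Its levels were 0 and 0.283 per 10000 peaks in the 6-month mice and 0.302 and 0.340 in the 15-month mice (exact permutation p = 0.2, adjusted over all named genes 1). Both mice of 15 months were above both of 21 months, as in 10.1% of named genes, and above both of 6 months, as in 12.4%. In the short list of replicate 2 at 15 months, 1 peak alone amounts to 0.340 per 10000. That 1 peak therefore ranks above the 3 peaks of replicate 2 at 6 months. A count of 0 in replicate 1 at 6 months allows up to 0.380 per 10000. The 7 peaks lay within 37.9 kb of chromosome 2, from 58413199 to 58451117. The highest fold was 3.54, in replicate 1 at 15 months, at 58443652 to 58444064 with a pileup of 5. In replicate 2 at 15 months the only peak had a fold of 2.63 and a pileup of 4.

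Bmp6 alone of the 9 genes had peaks in each mouse of 6 months and in neither of 21 months, a pattern of 3.04% of all named genes. Bmp6 and Acvr1 had peaks in each mouse of 15 months and in neither of 21 months, against 2.03% of all named genes. Bmp6 was also the only one of the 9 with peaks in all 4 younger mice and in neither of 21 months, which 0.759% of named genes showed. Both genes were known to show this pattern when the group was put together, so these counts and the permutation p-values of both genes are descriptions. Acvr2b also had peaks at 6 and 15 months and none at 21 months, but in 1 mouse at each age. Counting peaks in at least 1 mouse at both younger ages and none at 21 months, 3 of the 9 genes qualified, against 7.09% of all named genes. In the opposite direction, 0 of the 9 genes had peaks in each mouse of 21 months and in neither of 6 months, where 2.28% of named genes did, or in neither of 15 months, where 4.56% did. Between 6 and 15 months 0 of the 9 genes differed in this way, with 3.29% of named genes for peaks at 6 months only and 2.03% for 15 months only.

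Acvr1b, a type I receptor for activins and myostatin, had 0 and 1 peaks in the 6-month mice, 3 and 0 in the 15-month mice, and 1 and 2 in the 21-month mice. Its levels were 0 and 0.0942 per 10000 in the 6-month mice, 0.302 and 0 in the 15-month mice, and 0.109 and 0.233 in the 21-month mice (exact permutation p = 0.733, adjusted over all named genes 1). Both mice of 21 months were above both of 6 months, as in 9.37% of named genes, and the mice of 15 months spanned the range of all 6. Replicate 2 at 6 months and replicate 1 at 21 months had 1 peak each, so the order of their levels rests on list length. Acvr1b held the only position of the 9 genes where peaks of different mice overlapped, at chromosome 15. The peak of replicate 1 at 15 months ran from 101067561 to 101067761 with a pileup of 4 and a fold of 2.95. That of replicate 2 at 21 months ran from 101067651 to 101067911 with a pileup of 5 and a fold of 3.51. They shared 111 bp, which was 55.2% of the first and 42.5% of the second. The 7 peaks of Acvr1b were packed into 15.7 kb, and a second close pair, from the same mouse of 15 months and replicate 1 at 21 months, was 8 bp apart.

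Acvr1c, a type I receptor known in mouse fat tissue for nodal and activin B signals, had 0 and 4 peaks in the 6-month mice, 5 and 0 in the 15-month mice, and 4 and 1 in the 21-month mice. Its levels were 0 and 0.377 per 10000 in the 6-month mice, 0.503 and 0 in the 15-month mice, and 0.436 and 0.116 in the 21-month mice (exact permutation p = 0.867, adjusted 1). The mice of 15 months held the highest value and, with 1 mouse of 6 months, the lowest, which was 0. Its 14 peaks lay between 58238576 and 58302532 on chromosome 2, and the peaks of its neighbour Acvr1 began 111 kb further along. The neighbours did not share their age pattern, since Acvr1c had peaks in both mice at 21 months where Acvr1 had none, and the difference between the genes was not tested. The highest folds of Acvr1c were 3.83 in replicate 1 at 15 months and 3.86 in replicate 1 at 21 months, each with a pileup of 6 and at different positions.

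Tgfbr1, the type I receptor that TGF-β itself uses, had 2 and 3 peaks in the 6-month mice, 2 and 1 in the 15-month mice, and 6 and 2 in the 21-month mice. Its levels were 0.253 and 0.283 per 10000 in the 6-month mice, 0.201 and 0.340 in the 15-month mice, and 0.655 and 0.233 in the 21-month mice. Of these, 5 lay between 0.201 and 0.340 and only replicate 1 at 21 months was higher (exact permutation p = 0.8, adjusted 1). Its 16 peaks were spread over 118 kb of chromosome 4, from 47280819 to 47399075, the widest stretch of the 9 genes. Their median fold was 2.71, and the highest was 3.86, in replicate 1 at 21 months. The only pair of close peaks from mice of the same age in the whole group was here, 60 bp apart in the 21-month mice, with folds of 2.76 and 3.12.

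Acvr2b, the type II receptor that binds myostatin and activins, had 1 peak in replicate 2 at 6 months and 1 in replicate 1 at 15 months. Their pileups were 3 and 4 and their folds 2.45 and 2.20. Both folds lay below the median of 2.90 over all 78 peaks, and the second was near the lowest of the group. The other 4 mice had 0 peaks, which allows up to 0.327 per 10000 peaks in the longest of their lists and 1.02 in the shortest. The exact permutation p was 1.

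Tgfbr2, the type II receptor of TGF-β, had 0 and 4 peaks in the 6-month mice, 4 and 0 in the 15-month mice, and 3 and 3 in the 21-month mice. In the 4 mice with peaks its levels were close to each other, at 0.377, 0.402, 0.327 and 0.349 per 10000 in the order of age. It had 0 peaks in replicate 1 at 6 months and in replicate 2 at 15 months, where a count of 0 allows up to 0.380 and 1.02 per 10000, and the exact permutation p was 1. The 14 peaks spanned 72.8 kb of chromosome 9, from 115938619 to 116011421. Folds ran from 2.25 to 3.51 with a median of 3.01. Both mice without a peak of Tgfbr2 also had none of Acvr1b, Acvr1c, Acvr2b and Smad4, and they are the mice whose lists stood apart. The part that weak enrichment or a short list has in these zeros was not tested.

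Smad3, the receptor-regulated Smad of the activin and TGF-β branch, had 1 and 2 peaks in the 6-month mice, 0 and 1 in the 15-month mice, and 3 and 2 in the 21-month mice. Its levels were 0.127 and 0.188 per 10000 in the 6-month mice, 0 and 0.340 in the 15-month mice, and 0.327 and 0.233 in the 21-month mice (exact permutation p = 0.733, adjusted 1). Both mice of 21 months were above both of 6 months, while the mice of 15 months lay at either end. Smad3 and Acvr1b were the only genes with both 21-month mice above both 6-month mice, 2 of the 9 against 9.37% of named genes. In plain numbers neither gene separated these ages. Replicate 2 at 6 months and replicate 2 at 21 months had 2 peaks of Smad3 each, and the order of their levels rests on list length. The 9 peaks of Smad3 spanned 96.3 kb of chromosome 9 and no pair from different mice lay within 500 bp. Folds ran from 2.65 to 3.86.

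Smad4, the partner that all receptor-regulated Smads share, had the fewest peaks together with Acvr2b, and held the deepest. It had 1 peak in replicate 1 at 15 months and 1 in replicate 2 at 21 months, and 0 in the other 4 mice (exact permutation p = 1). The peak at 15 months, on chromosome 18 from 73839269 to 73839718, stacked 15 fragments with a fold of 9.44 and a −log10 q of 11.6. It ranked 218 by fold among the 99436 peaks of its list, above 99.8% of them, and its local background was the lowest of the list. This was the only one of the 78 peaks with a q of at most 0.05, where 2.21% of all peaks reached that limit. At the gene level 1 of the 9 genes had such a peak, against 13.7% of named genes. No other list held a peak at that position, and the nearest peak of another mouse was 4578 bp away. The second peak, from 73824212 to 73824668, had a pileup of 7 and a fold of 3.49.

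The other 77 peaks were shallow and like the bulk of their lists. Their pileups lay between 3 and 7 fragments and their folds between 2.20 and 3.86. The median fold over all 78 was 2.90 against 2.82 over all peaks, and per mouse it was 2.67 and 2.97 in the 6-month mice, 2.94 and 3.23 in the 15-month mice, and 2.76 and 2.92 in the 21-month mice. The corresponding medians of the whole lists were 2.73, 2.82, 2.91, 3.14, 2.76 and 2.92. The local input background was within 1% of the lowest of its list for 42 of the 78 peaks (53.8%, against 49.5% of all peaks) and never above 2.45 times it. The median width was 253.5 bp against 256 bp over all peaks.

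**Figure D3:**
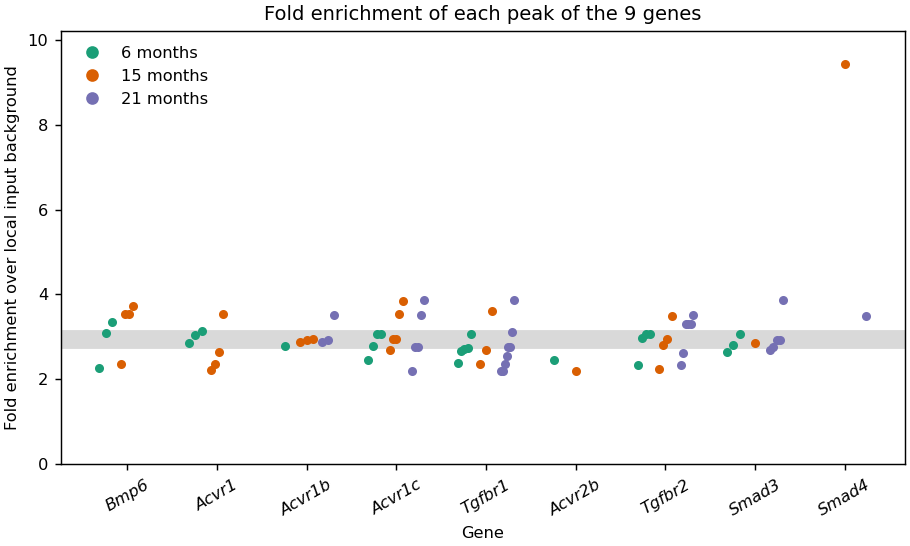
Fold enrichment over local input background (vertical axis, linear) of each of the 78 peaks, by gene (horizontal axis) and coloured by age. Each point is 1 peak, and the grey band runs from the lowest to the highest median fold of the 6 whole lists, 2.73 to 3.14. All points lie between 2.20 and 3.86 except the Smad4 peak at 9.44.

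Where both mice of an age had peaks, the best fold could be averaged over mice. For Tgfbr1 it was 2.90 ± 0.233 at 6 months, 3.15 ± 0.639 at 15 months and 3.49 ± 0.525 at 21 months (SD, n = 2 each). Its mice had 2.73 and 3.06 at the youngest age and 3.86 and 3.12 at the oldest, so these did not overlap, while both 15-month mice, at 2.70 and 3.61, overlapped with either age. The difference was not tested. For Bmp6 the mean was 3.22 ± 0.178 in the youngest mice and 3.63 ± 0.135 in those of 15 months (SD, n = 2 each), and its mice did not overlap between these ages, which was not tested either. The median folds of the whole lists did not overlap between these ages either, at 2.73 and 2.82 against 2.91 and 3.14. For Acvr1 the mean best fold was 3.09 ± 0.641 in the 15-month mice (SD, n = 2). For Smad3 it was 2.86 ± 0.288 at 6 months and 3.39 ± 0.663 at 21 months (SD, n = 2 each). At 21 months it was 3.22 ± 0.408 for Acvr1b, 3.68 ± 0.250 for Acvr1c and 3.41 ± 0.140 for Tgfbr2 (SD, n = 2 each). The best of many peaks tends to be higher than the best of few, and the peaks averaged lie at different positions.

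Sharing of positions was rare. The 78 peaks formed 77 regions, of which 1, that of Acvr1b, had peaks in 2 mice, where 6.40% of all 458111 union regions and 5.52% of the regions with a gene name had peaks in at least 2 mice. Of the 78 peaks, 2 were overlapped by a peak of another list, against 12.8% of all peaks. These 2 peaks are the pair in that Acvr1b region, so this is the same observation counted by peak. The median distance from a peak of these genes to the nearest peak of another list was 1.89 kb, and over all peaks it was 1.69 kb. Within 500 bp there were 10 pairs of peaks from different mice, in 5 genes, of which 1 pair was from mice of the same age and 9 were from different ages. The closest after the overlapping pair were 8 bp apart in Acvr1b, 19 bp in Tgfbr1 and 22 bp in Tgfbr2. With 2 mice per age, most possible pairs of mice differ in age, so the split of 1 and 9 is no measure of sharing within ages. A share over all peaks at a distance of 500 bp is not given here.

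**Figure D4:**
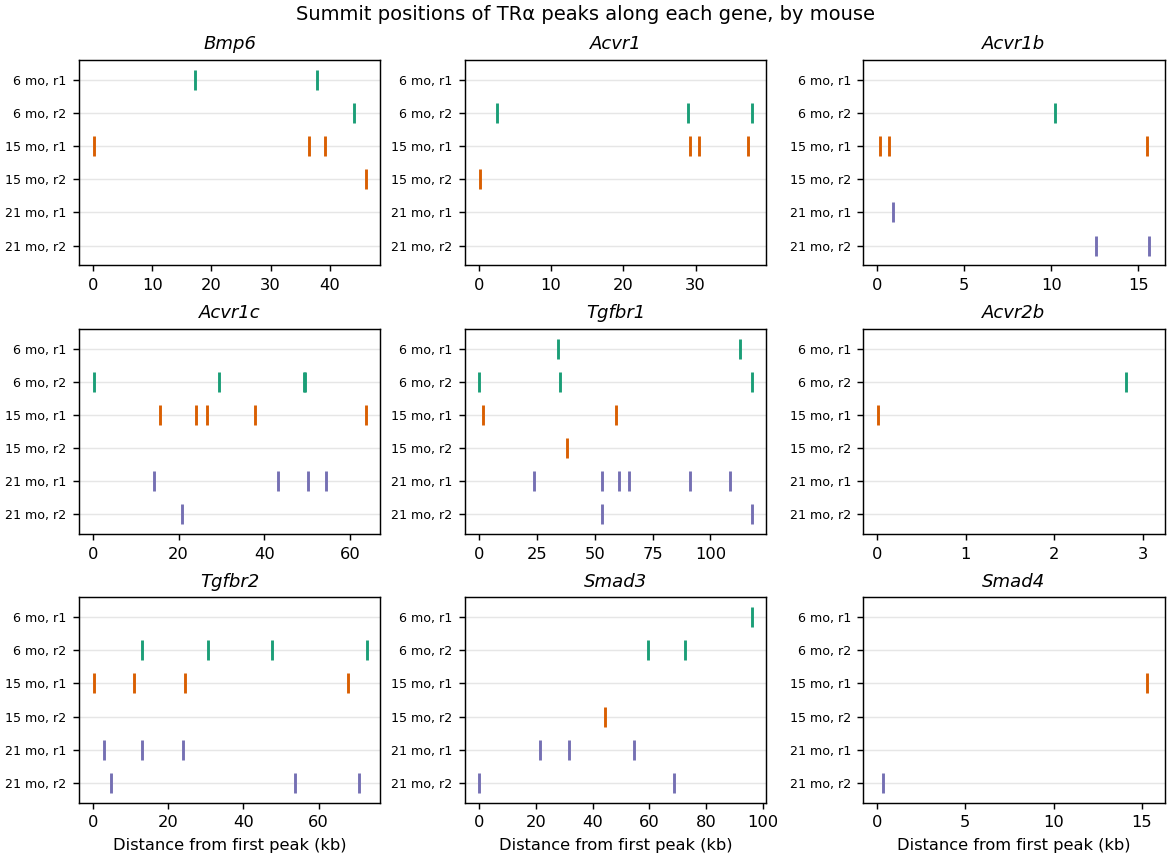
Summits of the peaks along each gene (horizontal axis, distance in kb from the start of the gene's first peak, with a scale of its own per gene) for the 6 mice (rows). Each tick is 1 peak, coloured by age. Ticks of different mice seldom stand above each other, and the only overlapping peaks are those at the right end of Acvr1b.

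At 6 months both mice had peaks for 3 of the 9 genes (Bmp6, Tgfbr1 and Smad3), against 43.3% of named genes. At 15 months the number was 3 (Bmp6, Acvr1 and Tgfbr1) against 32.9%, and at 21 months 5 (Acvr1b, Acvr1c, Tgfbr1, Tgfbr2 and Smad3) against 43.0%. Tgfbr1 was the gene found on every occasion. The counts at the younger ages rest on the mouse with fewer peaks. Replicate 2 at 6 months and replicate 1 at 15 months each had peaks of 8 of the 9 genes. Replicate 1 at 6 months had peaks of 3 and replicate 2 at 15 months of 4. In the same order, these lists held 848, 819, 583 and 247 peaks with a gene name. The share of all named genes with a peak in a single list is not given here.

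Of a list of 50 other genes of these pathways, 14 were named. They had 144 peaks in all, with a median of 7.5 per gene. Both mice had peaks for 6 of the 14 at 6 months, 7 at 15 months and 6 at 21 months. The shares over all named genes were 43.3%, 32.9% and 43.0%. Bmpr1b, a BMP type I receptor, had the most peaks of the 14, with 6 and 11 in the 6-month mice, 5 and 3 in the 15-month mice, and 7 and 9 in the 21-month mice. Smad7, an inhibitory Smad, had 2 and 5 peaks in the 6-month mice, 2 in either 15-month mouse, and 3 and 2 in the 21-month mice. Nog, which encodes the BMP antagonist noggin, had 6 and 6 peaks in the 6-month mice, 2 and 1 in the 15-month mice, and 1 and 1 in the 21-month mice (exact permutation p = 0.0667, adjusted over all named genes 1). Bmp7 had peaks in all 6 mice, and Bmp4 had 4 and 1 peaks in the 6-month mice, 2 and 0 in the 15-month mice, and 0 and 1 in the 21-month mice. Of the 144 peaks, 3 had a q of at most 0.05, where 2.21% of all peaks reached that limit. There was 1 each for Bmpr1b, Smad7 and Bmp7, with folds of 4.29, 4.68 and 4.29. The other 36 listed genes, among them Mstn, Inhba and Acvr2a, were not named and were not analysed here.

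The named genes whose peaks were distributed over the mice most like those of Tgfbr1 were Gata4 and Hdac4, with summed absolute differences over the 6 mice of 0.327 and 0.529 peaks per 10000. For Acvr1c they were Insr, at 0.326, and Tgfbr2, at 0.442. For Tgfbr2 they were Ephb4, at 0.320, and Insr, at 0.349. Insr and Ephb4 had 11 peaks each, and like Acvr1c and Tgfbr2 they had none in replicate 1 at 6 months or in replicate 2 at 15 months. Both were picked for likeness over these same mice, so the shared zeros follow in part from that choice.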

How the data were processed

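Per the labels' protocols, cross-linked gastrocnemius chromatin was immunoprecipitated with an antibody to TRα and sequenced as read pairs. The submitters' processing notes list MACS2 2.1.1.20160309, HOMER, Trimmomatic 0.36 and SAMtools 1.3.1, and name GRCm39 as well as mm10. An aligner or peak-calling options were not given in the sources used here. Scaffold versions in the lists are those of GRCm39, so peak positions are given on that build, counted from 1. The authors deposited, per peak, a pileup signal, a fold enrichment ratio over input background, and −log10 p and −log10 q, with p of at most 0.01 in effect (lowest −log10 p between 2.00 and 2.01). The browser-format lists repeat the same peaks.

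Overflow text followed 3987 of 491681 peaks. Its protein accessions were matched to symbols with RefSeq's GRCm38.p6 table, used for names, which named 3812 peaks and never gave more than 1 symbol. Between the first and the last named peak of each of the 9 genes, 0 peaks lacked its name. Peaks left without a name beyond those ends would not be seen in this way. Named genes are those with long annotation, not a random sample.

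Peaks per gene were divided by list length and multiplied by 10000. Ages were compared by an exact permutation test of the between-age sum of squares over 15 splits of the 6 mice, with Benjamini-Hochberg adjustment over 395 genes. The test is non-directional, its smallest p is 0.0667, so no gene could pass 0.05, and it was tested on simulated data. Peaks sharing 1 bp or more were merged into regions. A count of 0 was read as allowing 3 counts. Genes named are the 9, members of a list of 50 other pathway genes, and the 2 most similar genes for each of the 3 with the most peaks. The 9 genes, the lists and the tests were chosen with earlier results of these data known. Alternatives are given in the closing section. Python 3.11.15, pandas 2.3.3, NumPy 2.4.6, SciPy 1.17.1 and matplotlib 3.10.9 were used. Read totals were not used here.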

Additional observations from a re-analysis of the deposited data

How the results depend on the processing

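The p-values of the 9 genes stayed above 0.05 in all 107 alternative tests run, between 0.0667 and 1, which the design fixes. With each mouse left out in turn they ranged from 0.133 to 0.4 for Acvr1, 0.267 to 0.933 for Acvr1b, 0.6 to 1 for Acvr1c and Tgfbr2, 0.4 to 1 for Acvr2b and Smad4, 0.0667 to 0.267 for Bmp6, 0.0667 to 0.933 for Smad3 and 0.2 to 0.933 for Tgfbr1. The replicate numbers are not stated to mark a shared litter or day, and deviations of same-numbered mice from their age means correlated at 0.0016, -0.12 and 0.034 over the 395 genes. With the replicate number as a replicate block, p was 0.167 for Bmp6, 0.333 for Acvr1, 0.833 for Acvr1b and Smad3, and 1 for the other 5 genes, where 0.167 is the smallest p possible. With plain numbers of peaks in place of scaled ones, the exact permutation p rose to 0.333 for Bmp6 and 0.6 for Acvr1. It fell to 0.267 for Smad3 and 0.6 for Tgfbr1. With equal list lengths it was 0.2 for Bmp6, 0.6 for Acvr1, Acvr1c and Tgfbr1, and 0.4 for Tgfbr2. It was higher than these for Acvr1b, Smad3 and Smad4.

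With q of at most 0.05, 1 peak remained, that of Smad4, so the summed level was 0 at 6 months, 3.08 per 10000 such peaks at 15 months and 0 at 21 months, and the number of genes with peaks in both mice was 0 at each age. With a pileup of at least 5, that number was 1 at 6, 1 at 15 and 4 at 21 months. The summed levels, given without a spread, were then 0.676, 1.99 and 2.03 per 10000 at 6, 15 and 21 months. With equal list lengths, genes with peaks in both mice numbered 1 at 6, 2 at 15 and 3 at 21 months, and the summed levels were 0.510, 1.87 and 1.87. Per 100 peaks with a gene name, the summed levels were 1.55, 2.15 and 2.15 at 6, 15 and 21 months. The shared region of Acvr1b was lost (0 regions) with the limit on q, the pileup minimum, equal list lengths or an overlap of at least 50% of both peaks. When peaks within 500 bp counted, 9 regions were shared, with no share over all regions at that distance to set beside it. With each mouse left out, shared regions numbered 0 to 1, and they were 0 without replicate 1 at 15 months or replicate 2 at 21 months, which hold that pair. In an age with 1 mouse left, its own peaks were counted, and the number of genes ranged from 3 to 8 at 6 months, from 3 to 8 at 15 months and from 5 to 6 at 21 months. It was 8 at 6 months without replicate 1 and 8 at 15 months without replicate 2, also with both left out together, which was chosen after the data were seen. These counts for single mice stand without a share over all named genes. The summed level ranged from 0.633 to 1.79 at 6 months, from 1.36 to 2.21 at 15 months and from 1.28 to 1.85 at 21 months.

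Most peaks rest on 3 to 7 fragments, and a count of 0 peaks in a list is no measure of absent binding.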
